A study of Mus musculus with 4 samples.

Results

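The genes described here were those whose transcript level in the developing mouse urogenital sinus (UGS) was high in 1 of 4 libraries only, that of E18.5 wild type embryos. A gene was counted in when its deposited value was at least 5 FPKM (a read count corrected for transcript length and sequencing depth) in E18.5 wild type and at least 2 times the highest value of the other 3 libraries. Rows whose symbol starts with Mir, Snor, Rnu, Rn, Gm or LOC were left out. The deposited table held 25819 rows, 8431 of the remaining rows reached 5 FPKM in E18.5 wild type, and 58 of these (0.688%) were members. The FPKM values themselves chose the members, so their height in E18.5 wild type is a description of the choice and not a result.

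The study asked what the T-box transcription factor TBX18 does in the male UGS, the tissue from which the prostate, urethra and bladder neck arise. Whole UGS was dissected from male embryos at embryonic days E16.5 and E18.5, from wild type animals and from their *Tbx18* GFP/GFP littermates, which carry a GFP knock-in null allele on both chromosomes, and all lines were kept on a B6C3-F1 hybrid background. RNA of 3 embryos was pooled before each library was made, so each genotype at each stage is 1 library, and the GFP/GFP libraries are called E16.5 mutant and E18.5 mutant below. With 1 library per group there is no spread between replicates and no test, and stage, genotype, pool and library cannot be told apart for any value given here. In a whole organ, more cells of a type and more RNA per cell cannot be told apart either.

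The late fetal UGS is an epithelial tube in a bed of mesenchyme. Its epithelium gives rise to prostatic buds and to stratified bladder and urethral lining, the latter able to make small proline-rich (SPRR) proteins, cross-linked components of the barrier of stratified epithelia, and Kruppel-like factors that drive epithelial maturation. The surrounding mesenchyme gives rise to smooth muscle and fibroblasts, and nerves, vessels and blood cells run through it. Levels of metallothioneins, major histocompatibility complex (MHC) class I components and interferon-induced genes are known to respond to the state of a tissue, such as metal load, glucocorticoids or interferon.

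The defining markers of the UGS were present in all 4 libraries. All 7 epithelial markers (*Krt5*, *Krt8*, *Krt18*, *Trp63*, *Foxa1*, *Shh* and *Cdh1*) and all 6 mesenchymal markers were at 1 FPKM or more in each library, with sums of 359, 308, 301 and 379 FPKM for the epithelial list in E16.5 wild type, E16.5 mutant, E18.5 wild type and E18.5 mutant, the order used for all series of 4 values below. The 4 testis markers were below 1 FPKM in every library. The 3 hepatocyte markers (*Alb*, *Afp* and *Apoa1*) summed to 2.36, 13.1, 4.58 and 1.24 FPKM, highest in the E16.5 mutant, where each of them was above 1 FPKM. *Tbx18* itself was at 3.47, 2.50, 3.16 and 2.93 FPKM. These values do not separate the genotypes, and as an FPKM covers whatever transcript the GFP insertion leaves, they are no check of the labels.

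The E18.5 wild type library stood apart from the other 3 over the whole table, which bears on every value below. Its depth, estimated from genes hit by a single read, was about 29000000 reads, against 52400000 to 64000000 in the others. Its FPKM was above the highest other library in 25.4% of the 8431 rows, the median log2 ratio to the highest other library was -0.34, and 1050 of 9239 rows (11.4%) were at least 2 times lower than in the lowest other library, against 0% for E16.5 wild type, 0.0986% for the E16.5 mutant and 0.0123% for the E18.5 mutant by the same rule. The erythroid markers summed to 12219, 19609, 3803 and 17301 FPKM, lowest in E18.5 wild type. Smooth muscle markers summed to 1128, 588, 1303 and 3599 FPKM, highest in the E18.5 mutant. The part that depth, blood content or muscle content plays in the membership of the 58 genes was not tested. High values in 1 library only were found for 20 rows in E16.5 wild type (0.207%), 7 in E16.5 mutant (0.0729%) and 26 in E18.5 mutant (0.275%). When the 4 libraries were first brought to equal FPKM sums, 251 rows were high only in E18.5 wild type in place of 58, all 58 among them.

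The promoters of 3 gene pairs are shown because the genes of a pair share a regulator in textbook accounts while the pairs differ in whether both genes were members. *Mt1* and *Mt2* are neighbouring metallothionein genes switched on through metal response elements, *B2m* and *H2-D1* encode the light and a heavy chain of MHC class I molecules and are interferon-responsive, and *Sprr1a* and *Sprr2f* are barrier genes with AP-1 sites. Sequences are the 250 bases upstream of the transcription start in RefSeq (GRCm38.p6), written 5′ to 3′ on the gene's strand. Capitals mark each match on either strand. The string was TGCNCNC (a loose form of the metal response core) in the metallothionein genes. In the MHC genes it was GAAA, any 2 bases and GAAA again (a form of the interferon response element). In the SPRR genes it was TGANTCA (an AP-1 site, which reads the same on both strands).
*Mt1*, chr8:94178839-94179088, + strand: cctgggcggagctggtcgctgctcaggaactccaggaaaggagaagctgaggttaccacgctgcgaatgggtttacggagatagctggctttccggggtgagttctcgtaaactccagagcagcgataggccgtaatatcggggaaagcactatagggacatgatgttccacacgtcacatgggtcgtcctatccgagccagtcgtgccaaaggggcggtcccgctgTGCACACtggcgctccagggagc
*Mt2*, chr8:94172368-94172617, + strand: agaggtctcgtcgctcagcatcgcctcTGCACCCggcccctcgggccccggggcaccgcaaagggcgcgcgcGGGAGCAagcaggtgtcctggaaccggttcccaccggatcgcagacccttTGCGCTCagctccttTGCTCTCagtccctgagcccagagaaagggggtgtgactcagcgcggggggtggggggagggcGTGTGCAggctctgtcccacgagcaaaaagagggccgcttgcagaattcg
*B2m*, chr2:122147437-122147686, + strand: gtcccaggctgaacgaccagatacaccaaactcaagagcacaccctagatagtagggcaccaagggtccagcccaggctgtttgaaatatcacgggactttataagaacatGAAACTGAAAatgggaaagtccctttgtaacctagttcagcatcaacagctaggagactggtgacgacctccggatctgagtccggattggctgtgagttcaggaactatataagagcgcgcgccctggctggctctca
*H2-D1*, chr17:35262844-35263093, + strand: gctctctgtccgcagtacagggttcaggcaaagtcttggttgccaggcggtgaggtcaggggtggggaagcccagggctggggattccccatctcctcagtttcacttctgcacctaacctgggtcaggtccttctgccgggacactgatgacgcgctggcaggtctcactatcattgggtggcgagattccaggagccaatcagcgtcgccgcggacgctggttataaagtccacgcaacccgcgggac
*Sprr1a*, chr3:92485882-92486131, - strand: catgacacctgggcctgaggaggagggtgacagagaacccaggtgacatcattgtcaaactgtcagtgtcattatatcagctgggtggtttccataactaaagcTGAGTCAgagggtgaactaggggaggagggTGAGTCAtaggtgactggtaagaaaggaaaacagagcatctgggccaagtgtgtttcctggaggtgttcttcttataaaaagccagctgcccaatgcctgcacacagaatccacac
*Sprr2f*, chr3:92364937-92365186, + strand: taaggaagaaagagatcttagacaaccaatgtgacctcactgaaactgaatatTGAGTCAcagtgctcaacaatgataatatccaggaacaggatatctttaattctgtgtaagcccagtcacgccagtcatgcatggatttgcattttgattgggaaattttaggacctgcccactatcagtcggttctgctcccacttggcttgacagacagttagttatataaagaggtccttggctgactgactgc

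TGCNCNC allows any base at each N, so a match need not be a metal response element. The string occurred at 1 place in the *Mt1* window, the match beginning 23 bases before the start, and at 5 places in the *Mt2* window. These counts hold for the 1 RefSeq start taken per gene. Bases downstream of that start were not searched, so the counts do not compare the promoters of the 2 genes. It is a frequent string, held by 47.2% of the 27025 genes with a promoter window, by 58.7% of the 5970 of these that reached 5 FPKM in E18.5 wild type and by 67.5% of the 40 members that have one. The string of GAAA, any 2 bases and GAAA again occurred once in *B2m*, beginning 139 bases before the start, and nowhere in the *H2-D1* window. It was held by 3.46% of all genes, 2.80% of those that reached 5 FPKM and 3 of the 40 members (*B2m*, *Hspb6* and *Srgn*). Only this exact string was searched, so other forms of the interferon response element in the *H2-D1* window would not be marked. Nothing is read from the lack of a match there. TGANTCA occurred at 2 places in *Sprr1a* and at 1 place in *Sprr2f*, against 7.82% of all genes, 4.77% of those that reached 5 FPKM and 4 of the 40 members, the others being *S100a11* and *2810408I11Rik*. A TATAAA string stood in the window of 8 of the 40 members (20%), against 14.3% of all genes and 8.16% of those that reached 5 FPKM. Such matches describe letters in a window and say nothing of binding.

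**Figure D1:**
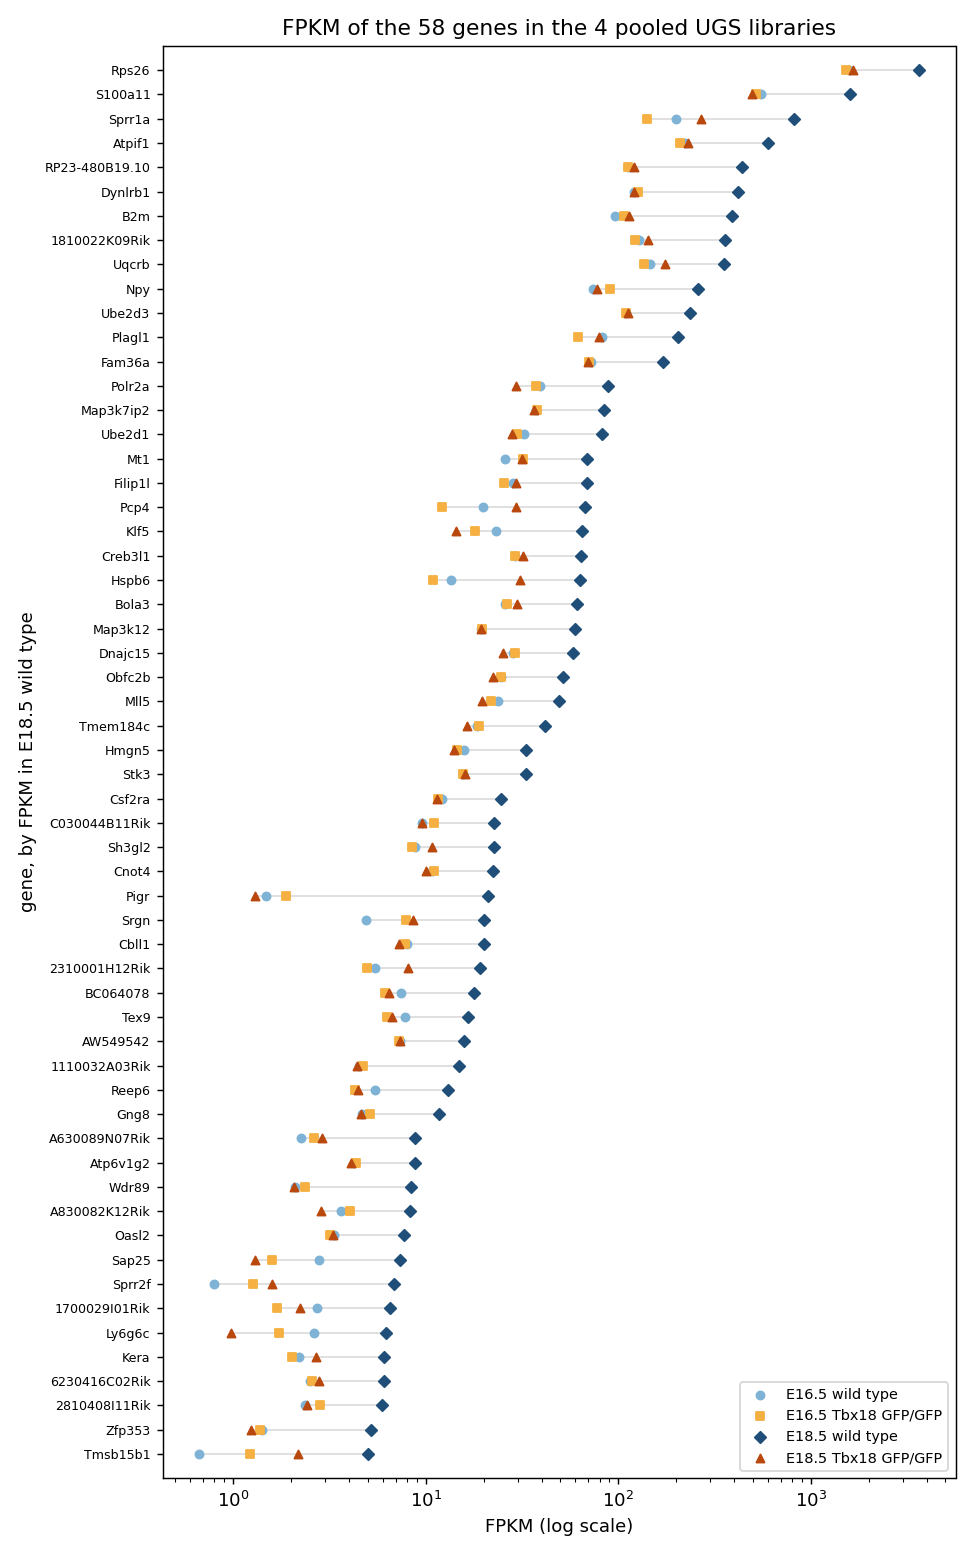
FPKM (log scale) of the 58 members in the 4 pooled UGS libraries, 1 row per gene in order of the E18.5 wild type value, with 1 point per library and a grey line from the lowest to the highest. The E18.5 wild type point lies at 5.04 to 3672 FPKM and, by the rule, to the right of the other 3, which lie close to each other for most genes and spread out for *Hspb6*, *Pcp4*, *Ly6g6c* and *Tmsb15b1*.

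Members covered the whole range of expression. In E18.5 wild type 14 genes lay between 5 and 10 FPKM, 18 between 10 and 50, 13 between 50 and 100 and 13 at 100 or above, with a median of 33.2 FPKM. The ratio to the highest other library was mostly small. Its median was 2.31, 39 members lay under 2.5, 11 reached 3, and 2 reached 4. No member was at 0 in another library. The members just inside the threshold were *Dnajc15* (a mitochondrial co-chaperone, ratio 2.01), *Creb3l1* (a transcription factor held in the endoplasmic reticulum membrane, 2.01), *Cnot4* (2.02), *Uqcrb* (2.02) and *Csf2ra* (2.03). Just outside it were *Ppig* (2.0 after rounding), *BC028528* (2.0), *Cat* (catalase, 2.0), *4933407H18Rik* (1.99) and *Tank* (1.98). Between ratios of 1.5 and 2 lay a further 259 rows, so the threshold cuts through a continuous distribution, as the plot of all rows shows.

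**Figure D2:**
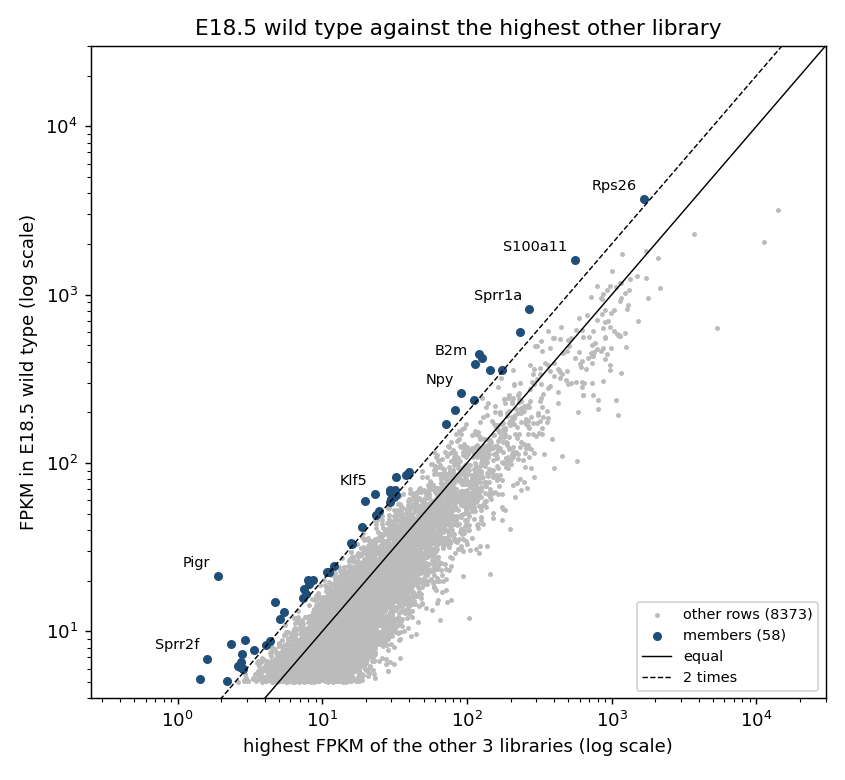
FPKM in E18.5 wild type (log scale) against the highest FPKM of the other 3 libraries (log scale) for the 8431 rows with at least 5 FPKM in E18.5 wild type, with the 58 members in blue, a solid line at equality and a dashed line at 2 times. The bulk of rows lies below equality, and most members lie just above the dashed line, with *Pigr* farthest from it.

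Genes of the epithelial barrier were represented by SPRR genes, a calcium-binding protein and a transcription factor. *Sprr1a* was at 199, 141, 822 and 268 FPKM, 3.06 times the highest other library. Its E18.5 mutant value was above both E16.5 values, and its E16.5 mutant value was the lowest of the 4. *Sprr2f*, which lies 117511 bases away in the same cluster on chromosome 3, was at 0.79, 1.27, 6.89 and 1.59 FPKM. At an estimated 79 reads in E18.5 wild type, its ratio of 4.32 had a 95% counting interval of 2.84 to 6.70. Every such interval here covers counting error of the reads only and not the differences between embryos. The other SPRR genes did not share the pattern. *Sprr2g* was at 4.80, 6.66, 11.4 and 6.07 FPKM, a ratio of 1.71. *Sprr2a*, *Sprr2a2* and *Sprr2a3* were between 0.93 and 0.96 times their highest other library. As Sprr2 genes are close copies, counts may move between them.

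*S100a11*, a calcium-binding protein that is also cross-linked into the cornified envelope, was the second most abundant member at 554, 517, 1607 and 498 FPKM. The 3 low libraries lay within 1.11 times of each other and the ratio was 2.90. About 49.0% of its sampled 31-base words also occur in another gene's transcripts, so reads from copies may be included. Of 7 other S100A genes with at least 5 FPKM in E18.5 wild type, *S100a1* alone was above 1 (1.34), and *S100a10* was at 0.74. *Klf5*, a Kruppel-like factor required for the maturation of the bladder lining, was at 23.1, 18.1, 65.2 and 14.3 FPKM. Its E18.5 mutant value was the lowest of the 4. At E16.5 the mutant was below wild type, as for 33 of the 58 members, while at E18.5 the rule fixes this direction. Among 9 other Kruppel-like factors *Klf3* came nearest with 29.0, 25.7, 54.3 and 22.9 FPKM (ratio 1.88), while *Klf4* was at 0.44.

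*Pigr*, the receptor that carries polymeric immunoglobulins across mucosal epithelia, had the largest ratio of all members. It was at 1.48, 1.89, 21.2 and 1.30 FPKM, which is 11.2 times the highest other library with a counting interval of 10.1 to 12.5. No other member passed 5. *Ly6g6c*, a GPI-anchored LY6 protein, was at 2.62, 1.73, 6.23 and 0.97 FPKM, lower in the mutant than in wild type at E16.5. The 4 uroplakins, structural proteins of the bladder surface, had ratios of 0.51 to 1.03 and were not members. *Upk1b* was at 98.6, 69.6, 138 and 134 FPKM, highest in E18.5 wild type by a small margin. *Upk1a* was at 83.6, 56.7, 108 and 125 FPKM, *Upk2* at 45.4, 32.1, 72.1 and 77.6 FPKM and *Upk3a* at 55.4, 46.0, 56.8 and 110 FPKM, all 3 highest in the E18.5 mutant. Over the list of urothelial and epithelial genes, 2 of 46 rows at 5 FPKM or more in E18.5 wild type were members (4.35%). Of all such rows 0.688% were. The list's median log2 ratio was -0.21, beside -0.34 over all rows.

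The members also held genes of immune cells and of responses to metal and interferon. *B2m*, the light chain that every MHC class I molecule needs to reach the cell surface, was at 96.4, 107, 389 and 113 FPKM, a ratio of 3.44. Its heavy chain partners went the other way. *H2-D1* was at 11.9, 11.5, 6.42 and 17.8 FPKM, lowest where *B2m* was highest, and the 3 heavy chains with at least 5 FPKM had ratios of 0.36 to 0.58. *Oasl2*, an interferon-induced member of the oligoadenylate synthetase family, was at 3.35, 3.17, 7.71 and 3.32 FPKM. Its relative *Oas1a* was near the floor at 1.04, 1.22, 0.42 and 0.87 FPKM, under the 5 FPKM asked of other relatives. *Mt1*, which binds zinc and copper, was at 25.8, 32.0, 68.9 and 31.5 FPKM. Its neighbour *Mt2* was at 16.6, 21.8, 16.2 and 17.9 FPKM, so that *Mt1* stood at 2.15 and *Mt2* at 0.74.

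*Srgn*, the proteoglycan of secretory granules in blood and endothelial cells, was at 4.92, 7.88, 20.2 and 8.64 FPKM. Both mutant libraries lay above E16.5 wild type. *Csf2ra*, a subunit of the receptor for granulocyte-macrophage colony-stimulating factor, was at 12.1, 11.6, 24.6 and 11.4 FPKM, with its 3 low libraries within 1.06 times of each other. Macrophage markers (*C1qa*, *Csf1r* and *Emr1*) summed to 20.3, 24.9, 11.6 and 25.1 FPKM, lowest in E18.5 wild type. None of the 13 leukocyte genes with at least 5 FPKM in E18.5 wild type was a member. As 0.688% of all such rows were members, nothing is read from that. The median log2 ratio of the 13 genes was -0.38, beside -0.34 over all rows.

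Single subunits of large complexes were also among the members. Of all 8431 rows 25.4% had a ratio above 1, so nothing is read from the shares of other subunits above 1. *Rps26*, a protein of the small ribosomal subunit, was the most abundant member at 1582, 1519, 3672 and 1666 FPKM. It was 1 member in 78 cytosolic ribosomal protein rows (1.28%, beside 0.688% of all rows). The other 77 had a median ratio of 0.64, between 0.15 (*Rpl29*) and 1.48 (*Rps28*). Since 45.5% of the sampled words of *Rps26* occur in other genes, reads from processed copies cannot be set apart. *Uqcrb*, a subunit of respiratory complex III, was at 147, 136, 355 and 175 FPKM. Of 7 other genes of that complex 1 was above 1 (*Uqcrh*, 1.01), and *Cyc1* was at 0.25. The larger list of oxidative phosphorylation genes had 1 member in 83 rows (1.2%, beside 0.688% of all rows). Its median log2 ratio was -0.80, and 19 of its rows were low only in E18.5 wild type. *Uqcrb* too shares much of its sequence with other genes (56.9% of sampled words).

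The other mitochondrial genes among the members act in assembly and regulation. *Atpif1*, the inhibitor of the ATP synthase, was at 223, 209, 603 and 231 FPKM. *Fam36a* (now *Cox20*), an assembly factor of cytochrome c oxidase, was at 71.9, 70.5, 171 and 70.0 FPKM, with the 3 low libraries within 1.03 times of each other. *Bola3*, needed for iron-sulfur proteins, was at 25.8, 26.6, 61.2 and 29.7 FPKM. *Dnajc15* was at 28.4, 29.2, 58.6 and 25.2 FPKM. That E18.5 wild type stood alone in all 4 genes is fixed by the rule. The other libraries lay within 1.16 times of each other in each gene, and nothing is read from their order.

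*Polr2a*, the catalytic subunit of RNA polymerase II, was at 39.4, 37.6, 88.2 and 29.4 FPKM. The other 10 subunits at 5 FPKM or more had ratios from 0.35 (*Polr2h*) to 1.08 (*Polr2i*). *Dynlrb1*, a light chain of the dynein motor, was at 121, 127, 419 and 122 FPKM, a ratio of 3.30 with the 3 low libraries within 1.05 times of each other. Among its 12 relatives *Dynll1* came closest at 1.60. *Atp6v1g2*, a vacuolar ATPase subunit of neurons, was at 4.23, 4.33, 8.80 and 4.11 FPKM, and 14 of 15 other subunits lay below 1. *Cnot4*, a ubiquitin ligase of the CCR4-NOT complex, was at 10.8, 11.1, 22.4 and 10.1 FPKM beside 8 other subunits at 0.69 to 1.26, of which 4 were above 1.

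Ubiquitin enzymes gave a pair of close relatives that were both members. *Ube2d3* was at 110, 110, 237 and 112 FPKM, its low libraries within 1.02 times of each other. *Ube2d1* was at 32.2, 29.7, 82.4 and 28.1 FPKM. Both are conjugating enzymes of the UBE2D subfamily, which serve many ubiquitin ligases. *Ube2d2* of the same subfamily was not a member at 69.2, 72.5, 61.1 and 68.9 FPKM, a ratio of 0.84 (-0.25 on the log2 scale). The median log2 ratio over all rows was -0.34. Of 28 other Ube2 genes 6 were above 1, led by *Ube2n* (1.72), and *Ube2s* was lowest at 0.37. The ubiquitin list as a whole had 2 members in 108 rows (1.85%, beside 0.688% of all rows) and a median log2 ratio of -0.19. *Cbll1*, a ubiquitin ligase that acts on E-cadherin, was at 7.99, 7.82, 20.1 and 7.26 FPKM.

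**Figure D3:**
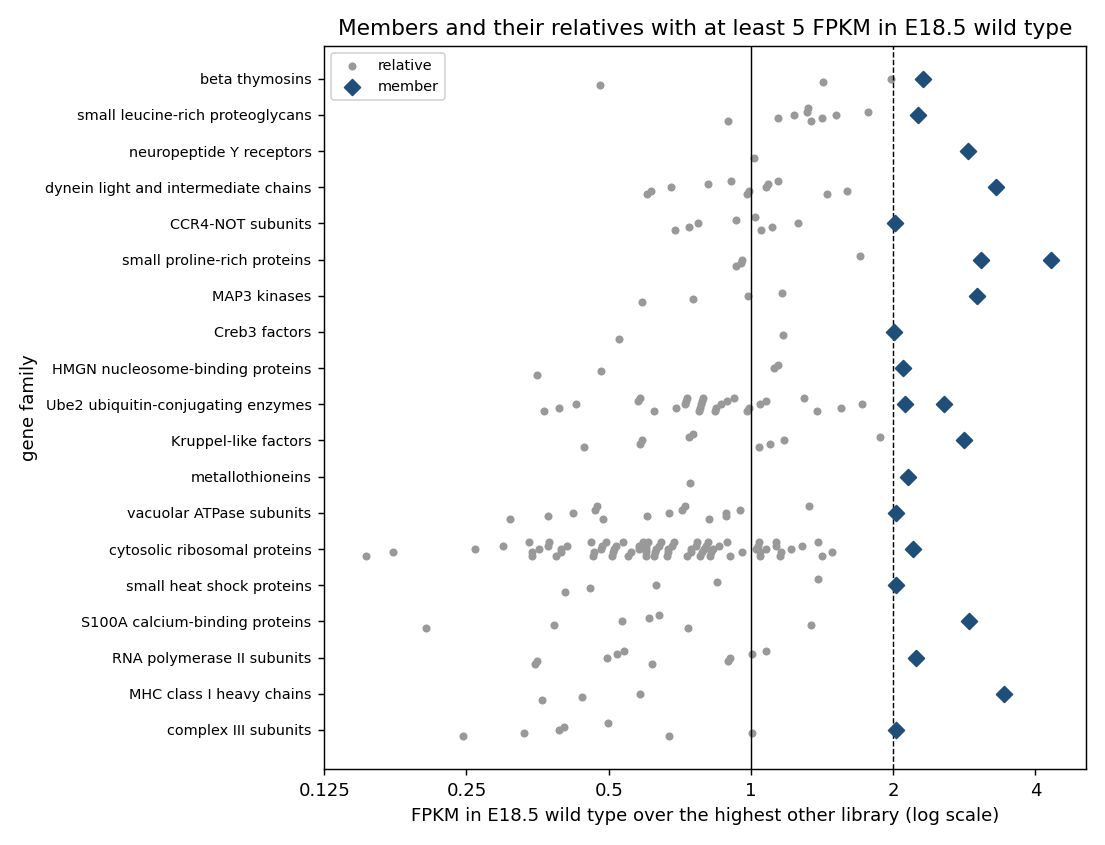
Ratio of E18.5 wild type to the highest other library (log scale) for members (blue diamonds) and for their relatives (grey points) with at least 5 FPKM in E18.5 wild type, in 19 gene families ordered by the median of the relatives, with lines at 1 and at 2. By the rule no relative reaches 2, and the median of the relatives lies below 1 except in the beta thymosins, the small leucine-rich proteoglycans and the neuropeptide Y receptors.

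The relatives were grouped by symbol after the members' values were known. In the 20 families, 56 of 209 relatives with at least 5 FPKM in E18.5 wild type had a ratio above 1 (25.4% of all 8431 rows did), and their median ratio was 0.74. Among the families with more than 3 such relatives, the small leucine-rich proteoglycans had the largest share above 1. *Kera* (keratocan, a proteoglycan of the corneal stroma) was at 2.2, 2.02, 6.11 and 2.70 FPKM. Of 9 relatives 8 were above 1, among them *Dcn* (decorin) at 527, 624, 967 and 722 FPKM, *Bgn* (biglycan) at 1.41 and *Aspn* at 1.52, while *Lum* was at 0.90. The extracellular matrix list had 1 member in 50 rows (2%, beside 0.688% of all rows) and a median log2 ratio of -0.22.

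Regulators of transcription and signalling made up much of the remainder. *Plagl1*, an imprinted zinc finger factor, was at 82.3, 61.7, 206 and 79.8 FPKM, lowest in the E16.5 mutant. *Map3k12*, a kinase of axonal stress signalling, was at 19.4, 19.7, 59.4 and 19.3 FPKM. Its ratio was 3.01 and its low libraries lay within 1.02 times of each other. *Map3k7ip2* (now *Tab2*), an adaptor of the TAK1 kinase, was at 37.4, 37.7, 84.4 and 36.5 FPKM, and *Stk3*, a Hippo pathway kinase, at 15.6, 15.7, 33.1 and 15.9 FPKM. Both pairs of E16.5 values were nearly equal. *Mll5* (now *Kmt2e*), a chromatin regulator, was at 23.6, 21.8, 49.1 and 19.6 FPKM. It was 1 member in 115 chromatin rows (0.87%, beside 0.688% of all rows). *Creb3l1* was at 29.2, 29.2, 64.4 and 32.1 FPKM, and *Hmgn5*, a nucleosome-binding protein of the X chromosome, at 15.8, 14.6, 33.2 and 14 FPKM. *Obfc2b* (now *Nabp2*), which binds single-stranded DNA, was at 24.7, 24.7, 51.9 and 22.4 FPKM. *Sap25*, a subunit of a histone deacetylase complex, was at 2.79, 1.59, 7.34 and 1.30 FPKM, lower in the mutant at E16.5. However, 99.1% of its sampled words occur in another gene as well.

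Genes known from nerve and muscle were among the members. The markers of those tissues given here were not, and as only 0.688% of all rows were members, nothing is read from that. *Npy*, the sympathetic cotransmitter neuropeptide Y, was at 74.0, 90.8, 261 and 78.1 FPKM. Of the neuronal markers *Tubb3*, *Elavl4*, *Snap25* and *Stmn2*, *Snap25*, a protein of synaptic vesicle fusion, was nearest to the pattern at 36.3, 28.0, 65.0 and 31.3 FPKM. *Tubb3*, the neuronal beta tubulin, was at 124, 93.9, 52.2 and 99.9 FPKM, lowest in E18.5 wild type. *Sh3gl2*, an endophilin of synaptic vesicles, was at 8.85, 8.46, 22.5 and 10.8 FPKM, and *Gng8*, a G protein gamma subunit, at 4.70, 5.11, 11.7 and 4.59 FPKM.

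*Hspb6*, a small heat shock protein of muscle, was at 13.6, 11, 63.1 and 31.1 FPKM, and *Pcp4*, a calmodulin regulator, at 19.9, 12.1, 67.6 and 29.4 FPKM. Both were lowest in the E16.5 mutant and second highest in the E18.5 mutant. *Acta2* had the same order of the first 3 libraries with 597, 381 and 698 FPKM but was at 1526 FPKM in the E18.5 mutant. *Actg2* and *Myh11* had this order too, while the markers *Cnn1*, *Tagln* and *Des* were lower in E18.5 than in E16.5 wild type. The smooth muscle list had no member in 29 rows, beside 0.688% of all rows, so nothing is read from that. *Filip1l*, which interacts with filamin, was at 28.4, 25.5, 68.7 and 29.4 FPKM, with no such spread. *Tmsb15b1*, an actin-binding thymosin, was the lowest member at 0.67, 1.23, 5.04 and 2.18 FPKM. At an estimated 33 reads its ratio of 2.31 had a counting interval of 1.34 to 4.02, the only one that reached below 1.5. Its near copy *Tmsb15b2*, just outside the rule, was at 11.3, 11.3, 22.4 and 11.1 FPKM, and 65.9% of the sampled words of *Tmsb15b1* occur in another gene.

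Low or little described genes completed the module. *Wdr89*, a WD repeat protein, was at 2.1, 2.35, 8.38 and 2.07 FPKM, and *1110032A03Rik* at 4.52, 4.70, 14.9 and 4.39 FPKM. *RP23-480B19.10* on chromosome 13 was the fifth most abundant member at 113, 112, 441 and 120 FPKM, a ratio of 3.67. It could not be matched to the reference annotation, nor could *AW549542* and *2310001H12Rik*. *Zfp353*, annotated as a processed pseudogene, was at 1.42, 1.37, 5.20 and 1.24 FPKM. *1810022K09Rik* was at 128, 122, 358 and 143 FPKM. The rest, namely *1700029I01Rik*, *2810408I11Rik*, *6230416C02Rik*, *A630089N07Rik*, *A830082K12Rik*, *BC064078*, *C030044B11Rik*, *Reep6*, *Tex9* and *Tmem184c*, had 5.94 to 41.8 FPKM in E18.5 wild type and ratios of 2.04 to 3.04. For *1700029I01Rik* (94.1%) and *6230416C02Rik* (94.5%) nearly all sampled words occur in other genes, so that the locus of their reads is uncertain. In the lists of genes by function stood 10 of the 58 members. The share of all rows in a list is not given here, so nothing is read from that number. None of the 54 genes that the study discussed by name was a member. Of these 54 genes 30 reached 5 FPKM in E18.5 wild type, and over all such rows 0.688% were members, so nothing is read from this either.

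Each chromosome held few members, beside a share of 0.688% over all rows. Chromosome 10 held 8 of 428 rows at 5 FPKM or more in E18.5 wild type (1.87%) and chromosome 3 held 5 of 446 (1.12%). Chromosome 11 held 1 of 680 (0.147%) and chromosome 18 held 0 of 227. With such small counts nothing is read from the differences between chromosomes. Within 1000000 bases of each other lay *Sprr1a* and *Sprr2f*, *Obfc2b* and *Rps26* (214732 bases apart), *Ly6g6c* and *Atp6v1g2* (166547 bases), and *A630089N07Rik* and *2310001H12Rik*, which overlap on chromosome 16, so that reads of the overlap could be given to either. Positions are those of the deposited table, whose genome build is not given in the sources used here.

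**Figure D4:**
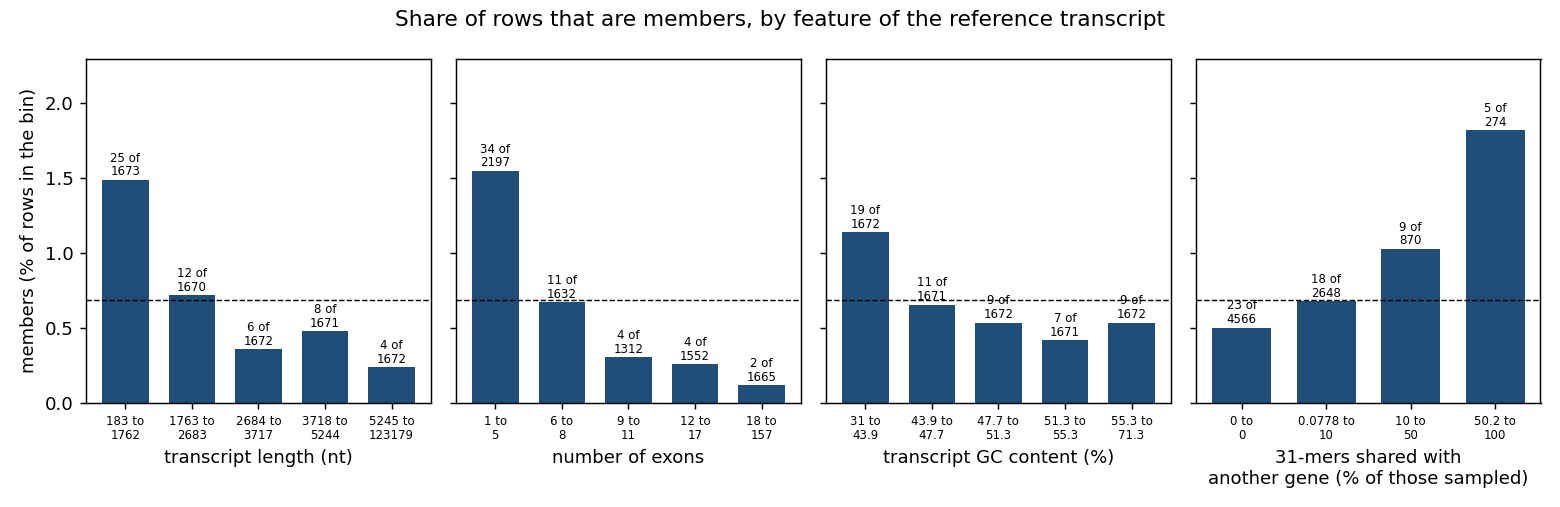
Share of rows that are members (% of the rows in a bin) by length, number of exons and GC content of the longest transcript of the gene in the reference (coding where there is one), and by the share of sampled 31-base words found in another gene, with the number of members and rows above each bar and a dashed line at 0.688%. The share was 1.49% for the shortest transcripts against 0.239% for the longest, and 1.55% for 1 to 5 exons against 0.12% for 18 or more.

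A property that the rule did not use was shared by many members: their transcripts were short. Over the 55 members matched to the reference annotation, the median transcript was 1934 nt, against 3170 nt for all 8358 matched rows with at least 5 FPKM in E18.5 wild type. Under 1000 nt lay 25.5% of the members and 5.97% of all rows. The median number of exons was 4 against 9, and 56.4% of members had 4 exons or fewer against 19.1% of all rows. Their median GC content was 46.4% against 49.5%. The 1050 rows that were low only in E18.5 wild type had a median of 2141 nt and 56.4% GC. GC content followed the ratio over the whole table, with a median log2 ratio of -0.03 in the lowest of 5 equal GC bins and -0.78 in the highest. For length the course over all rows was the reverse of that of the members, from -0.54 in the bin of shortest transcripts to -0.15 in that of the longest. At least 10% of the sampled 31-base words occurred in another gene for 25.5% of members and 13.7% of all rows. Of the matched members 49 are protein-coding. What part length, GC content or copies play in the membership was not tested.

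The rows left out by their symbols followed the rule far more often. Of 644 such rows with at least 5 FPKM in E18.5 wild type, 100 (15.5%) would have been members, with a median ratio of 3.00. They comprised 60 LOC and 29 Gm predicted genes, 7 rows with the prefix Rnu (*Rnu2*, *Rnu1b1* and *Rnu1b6* for spliceosomal RNAs, the other 4 for the small nucleolar RNA U3), *Rn7sk*, Rn4.5s, 1 row with the prefix Snor and *Mir719*. *Rn7sk*, the 7SK RNA that restrains transcription elongation and carries no poly(A) tail, was at 81.6, 40.0, 637 and 34.4 FPKM. The library kit is one for mRNA. The part that such RNA plays in the values of the 58 members was not tested.

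**Figure D5:**
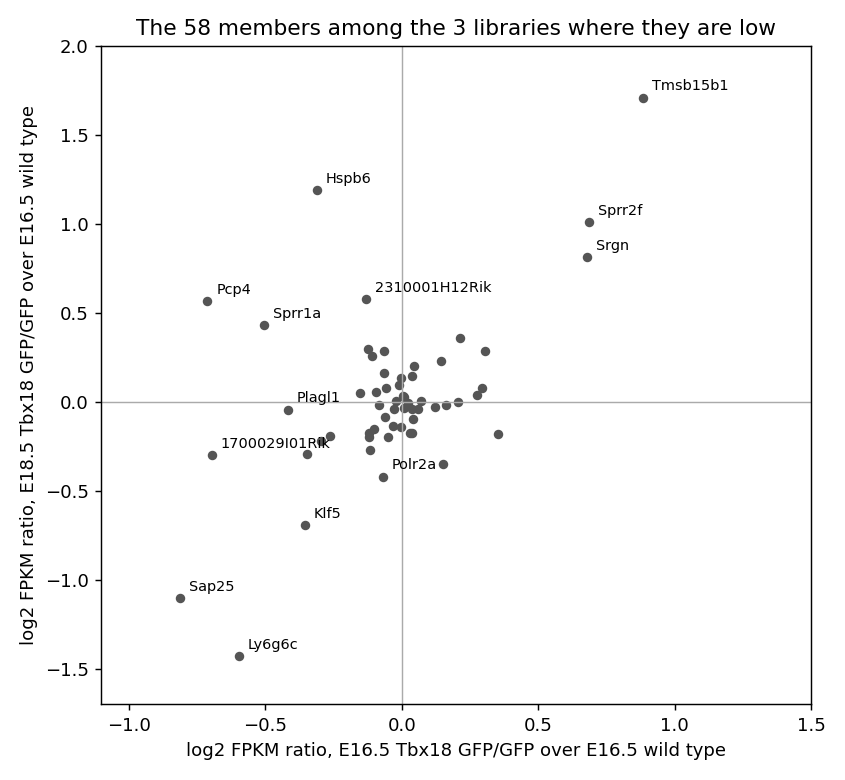
The 58 members among the 3 libraries in which they were low, as the log2 ratio of E16.5 mutant to E16.5 wild type (x axis) against that of E18.5 mutant to E16.5 wild type (y axis), 1 point per gene, both axes sharing the E16.5 wild type library. Most points lie near the origin, with *Tmsb15b1*, *Sprr2f* and *Srgn* up on both axes, *Ly6g6c* and *Sap25* down on both, and *Hspb6*, *Pcp4* and *Sprr1a* down on the first and up on the second.

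Among the 3 other libraries most members varied little. The highest of the 3 was the E18.5 mutant for 23 members, E16.5 wild type for 19 and the E16.5 mutant for 16. The highest was less than 1.2 times the lowest for 33 members (56.9%) and at least 2 times the lowest for 6 members. These 6 were *Hspb6*, *Ly6g6c*, *Pcp4*, *Sap25*, *Sprr2f* and *Tmsb15b1*. For 4 of them the low values rest on few estimated reads, in E16.5 wild type, E16.5 mutant and E18.5 mutant 10, 15 and 26 for *Tmsb15b1*, 20, 28 and 33 for *Sprr2f*, 125, 72 and 38 for *Ly6g6c* and 158, 78 and 60 for *Sap25*. *Hspb6* had at least 702 and *Pcp4* at least 289. A member had to reach 5 FPKM in E18.5 wild type only and could be near the floor in the other libraries, so the spread of the members is not set against that of all rows.

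The comparison of mutant and wild type at E16.5 did not enter the rule except through the highest value. The median log2 ratio was -0.02 over the members and 0.01 over all rows, with 33 members lower and 25 higher in the mutant. At 1.5-fold, *Srgn*, *Sprr2f* and *Tmsb15b1* were higher in the E16.5 mutant (3 of 58, beside 0.332% of all rows) and *1700029I01Rik*, *Ly6g6c*, *Pcp4* and *Sap25* were lower (4 of 58, beside 1.21%). None reached 2-fold. From E16.5 wild type to the E18.5 mutant, 4 members were 1.5-fold higher (1.8% of all rows) and 3 were lower (1.21%), with a median log2 ratio of -0.01. The background shares are over rows with at least 5 FPKM in E18.5 wild type, whereas members could be far below that at E16.5, as *Sprr2f* (20 and 28 estimated reads in wild type and mutant) and *Tmsb15b1* (10 and 15) were, so nothing is read from the members' shares beside them.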

How the data were processed

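Whole UGS RNA was pooled from 3 male embryos per genotype and stage, and 1 library each was made with the KAPA Stranded mRNA kit and read from a single end. The authors aligned the reads with TopHat2 2.1.0 and computed FPKM with Cufflinks 2.2.1, and the submitters' processing notes also name Trimmomatic 0.30 and CASAVA 1.8.2. The genome build and annotation are not given in the sources used here. The deposited table holds 1 FPKM column per library and 25819 rows, and no other per-sample column was set aside. The rule for members was applied to the FPKM as deposited, with no pseudocount, in Python 3.11.15 with pandas 2.3.3. Members, gene lists and gene families were chosen with earlier results of these data known, and nothing was tested, since each group is 1 library.

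Reads per gene were estimated from depth and transcript length less an offset of 214 nt. The length was that of the longest transcript in the reference (coding where there is one). Where shorter transcripts prevail, read numbers are overestimated and the counting intervals are too narrow. Depth came from 17 to 28 olfactory receptor genes of 1 exon in a library, taken to hold 1 read each because the inverse of their FPKM was linear in gene length (within 1%). Counting intervals (95%) are exact binomial intervals of 2 read numbers. Transcript length, exons, GC content and 31-base words (sampled every 10 bases) came from GENCODE M21 (GRCm38), matched by symbol or synonym on the same chromosome for 55 of 58 members and 99.1% of the 8431 rows that reached 5 FPKM in E18.5 wild type. The genes named were the 12 most abundant members, the 12 with the largest ratio among those with at least 1 FPKM in each other library, up to 6 members per gene list, neighbours, the 5 rows on either side of the threshold and Tbx18. The other members and the relatives were named after their values were seen. Symbols are as in the table. Values of the neuronal lists as a whole are not reported here. The rule was checked on simulated data with known changes. The simulated libraries had a common mean and equal noise, so the check does not cover the table-wide shift of the E18.5 wild type library.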

Additional observations from a re-analysis of the deposited data

Results flagged for a closer look

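At E16.5 Srgn, Sprr2f and Tmsb15b1 were higher in the mutant than in wild type, by 0.68, 0.68 and 0.88 on the log2 scale, opposite to E18.5, where the choice of the genes fixes the direction for all 58. The difference between the stages was not tested, since each group is 1 library. The E16.5 values rest on an estimated 20 reads in wild type and 28 in the mutant for Sprr2f, on 10 and 15 for Tmsb15b1 and on 477 and 665 for Srgn.

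Outside the 58 genes, 100 rows left out by their symbols met the same rule, 15.5% of the 644 such rows at 5 FPKM or more in E18.5 wild type against 0.688% of the rows kept. The highest ratio among them was 53.1, and Mir719 was at 200.3, 188, 10812 and 499 FPKM in the order E16.5 wild type, E16.5 mutant, E18.5 wild type and E18.5 mutant.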

How the results depend on the processing

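The number of members depended on the scaling of the libraries and on the limits of the rule. With the deposited values it was 58. It was 251 with equal FPKM sums, 237 with the median log2 ratio to E16.5 wild type set to 0, 249 with upper quartile scaling and 301 with trends on transcript length and GC content subtracted. By construction these scalings raise the E18.5 wild type values relative to the others. All 58 remained under the first 3 and 53 under the last. The count was 11 at 3-fold, 317 at 1.5-fold, 101 at a minimum of 1 FPKM, 371 with no minimum and 158 with no symbol left out. It was 44 at a minimum of 10 FPKM and 43 with 1 FPKM added to every value.

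For E16.5 wild type the 20 rows became 13 under median centring, 12 under upper quartile scaling, 8 with the trends subtracted, 1 at 3-fold, 53 at 1.5-fold, 58 at a minimum of 1 FPKM, 12 at 10 FPKM, 415 with no minimum and 12 with 1 FPKM added. For the E16.5 mutant the 7 rows became 15 at 1.5-fold, 18 at 1 FPKM, 4 at 10 FPKM and 385 with no minimum. For the E18.5 mutant the 26 rows became 14 with equal sums, 6 at 3-fold, 95 at 1.5-fold, 45 at 1 FPKM and 302 with no minimum. The 10 members that stood in a list became 75 at 1.5-fold, 53 with equal sums, 45 under median centring and 50 under upper quartile scaling. The median GC content of members minus that of other rows was -3.05 percentage points, -3.85 when the other rows were those with at least 5 FPKM in any library, and -1.50 for the members at 3-fold. Of the 142 alternative values computed, 36 lay beyond and 106 within the limits of 1.5 times for a count, 0.58 for a log2 ratio and, for the median of a sequence feature, the SD over rows divided by the square root of the number of members. The log2 ratios of the members were 1.30 to 3.89 under the first 3 scalings, and 0.98 to 3.80 with the trends subtracted for the 55 members that have a length and GC content.

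No paired analysis was possible because each group is 1 pooled library, and for the same reason no library was left out in turn. Of the 55 members with estimated reads, the counting interval of the ratio stayed at or above 2 for 34 and reached below 2 for 21.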

Other observations

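Just under the minimum of 5 FPKM lay 5 further rows with ratios above 2. Ifi44, an interferon-induced gene, was at 1.36, 2.13, 4.79 and 1.95 FPKM in E16.5 wild type, E16.5 mutant, E18.5 wild type and E18.5 mutant. Crisp1, a cysteine-rich secretory protein, was at 1.03, 2.2, 4.96 and 1.95 FPKM. The others were E530001K10Rik, 1700102H20Rik and Pet117, at 4.88, 4.93 and 4.91 FPKM in E18.5 wild type.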
